A study of Mus musculus with 3 samples.

Results

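Transcripts of 8 genes were followed across the cells of mouse pancreas: Vwf, Mgp, Bgn, Cytl1, Fn1, Bmp4, Eln and Tmem158, which are 8 of the 55450 features counted. They were picked as genes of large-vessel walls that stood higher in endothelial cells of the exercise library than in those of the diabetic sedentary library, so their values in that contrast describe the choice and support nothing. Single-cell RNA was counted as unique molecular identifiers (UMIs, 1 for each captured transcript copy) in 3 libraries, 1 for each group, so there were no replicates. The groups were a diabetic library with exercise, a diabetic sedentary library and a library titled as sedentary whose treatment label is none. Per the series description the mice were db/db males, whose leptin receptor is defective and which grow obese with diabetes, and treadmill training began when they were 6 weeks old. The labels do not state the genotype of the library labelled none, nor how many animals a library pooled. No test between groups can be made with 1 library each: levels are given as CPM, the UMIs of a gene per 1000000 UMIs of the barcodes summed, and every 95% interval below is an exact Poisson or binomial one that covers counting error only.

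Vessel walls differ with their size: arteries and larger veins carry elastic fibres, proteoglycans and fibronectin around endothelial cells and smooth muscle, whereas capillaries are a single endothelial layer for exchange. Endothelial cells of larger vessels store von Willebrand factor in Weibel-Palade bodies together with P-selectin, and release both when platelets and leukocytes are to be caught. Capillary endothelial cells of the pancreas, islets included, are rich in Kdr, the main receptor for vascular endothelial growth factor, which is why barcodes with and without a Kdr UMI are kept apart here. Of the 8 genes, Mgp, Bgn, Fn1 and Eln encode matrix proteins, Bmp4 a growth factor of the bone morphogenetic protein family, Vwf an adhesive glycoprotein of blood and vessel wall, Cytl1 a small secreted protein and Tmem158 a membrane protein, so the word matrix covers only some of them.

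In GENCODE M21 on build GRCm38 all 8 are protein-coding. Vwf lies on chromosome 6 (125546774 to 125686679, plus strand), as does Mgp (136872435 to 136875823, minus strand). Cytl1 (37735519 to 37739820, plus strand) and Eln (134702593 to 134747323, minus strand) lie on chromosome 5. Bgn lies on chromosome X (73483602 to 73495933, plus strand), Fn1 on chromosome 1 (71585520 to 71653200, minus strand), Bmp4 on chromosome 14 (46383520 to 46390669, minus strand) and Tmem158 on chromosome 9 (123259053 to 123260764, minus strand). Fn1, Bmp4 and Eln overlap genes of the opposite strand, and whether counting used strand is not stated. Those partners held 0 to 3 UMIs in the endothelial barcodes of any library.

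Promoter sequences of 3 of the 8 members, Bgn, Bmp4 and Cytl1, were matched in RefSeq (GRCm38.p6) and are shown so that their start regions can be compared. They were read as the 250 bases before and 50 bases after the gene start, 5′ to 3′ on the gene's strand. Capitals mark GGAA or its reverse complement TTCC, the core letters read by ETS factors, a family that includes regulators of endothelial genes.
Bgn promoter, chrX:73483351-73483650, plus strand: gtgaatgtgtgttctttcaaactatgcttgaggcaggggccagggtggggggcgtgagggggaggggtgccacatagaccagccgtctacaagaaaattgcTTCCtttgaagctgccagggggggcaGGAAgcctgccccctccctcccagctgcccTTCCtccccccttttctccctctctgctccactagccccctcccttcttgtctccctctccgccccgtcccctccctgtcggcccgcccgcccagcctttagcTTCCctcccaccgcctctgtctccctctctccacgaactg
Bmp4 promoter, chr14:46390620-46390919, minus strand: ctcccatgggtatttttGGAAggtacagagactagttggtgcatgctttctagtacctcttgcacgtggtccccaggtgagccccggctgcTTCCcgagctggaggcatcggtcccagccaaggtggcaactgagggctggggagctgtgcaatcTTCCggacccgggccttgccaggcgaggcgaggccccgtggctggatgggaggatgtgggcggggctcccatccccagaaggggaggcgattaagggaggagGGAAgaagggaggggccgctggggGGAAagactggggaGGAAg
Cytl1 promoter, chr5:37735269-37735568, plus strand: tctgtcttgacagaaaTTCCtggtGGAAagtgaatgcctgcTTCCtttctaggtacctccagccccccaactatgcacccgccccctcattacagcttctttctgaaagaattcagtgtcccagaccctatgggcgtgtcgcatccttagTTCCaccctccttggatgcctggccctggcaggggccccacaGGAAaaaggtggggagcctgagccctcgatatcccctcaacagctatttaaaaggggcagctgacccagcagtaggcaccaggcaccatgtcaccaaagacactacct
The Bmp4 window held 6 such matches, the Cytl1 window 5 and the Bgn window 4. As many or more were held by 15.7% of the 32851 promoters of this length for Bmp4, 28.6% for Cytl1 and 46.3% for Bgn, so the 3 windows do not stand apart in this count. GC content was 64.0% in the Bmp4 window, 63.7% in the Bgn window and 55.0% in the Cytl1 window, beside a median of 52.7% over all promoters. A match is a description of letters and not a bound site.

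The libraries differed in depth and RNA quality. The exercise library held 18433 barcodes with a median of 1887 UMIs, the diabetic sedentary library 12743 with a median of 4640 and the library labelled none 9958 with a median of 3951.5. After filtering, 15862, 11599 and 9169 barcodes were kept in that order. Barcode sequences shared between pairs of libraries numbered 32 to 61, and none of them was endothelial in both (0 shared endothelial barcodes). Endothelial barcodes were those with at least 3 UMIs in all of Pecam1, Cdh5, Egfl7, Ptprb and Flt1 summed. They numbered 275 in the exercise library, 576 in the diabetic sedentary library and 134 in the library labelled none, with median depths of 2537, 2817.5 and 3340 UMIs. Acinar genes, whose RNA was found in every class of barcodes, took 28.8%, 37.9% and 47.3% of their UMIs, and the median mitochondrial share was 6.92%, 4.09% and 1.20%. The part of these differences in the results below was not tested.

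All 8 genes stood higher in the endothelial barcodes of the exercise library than in those of the diabetic sedentary library, by 5.68-fold (Eln) to 20.1-fold (Cytl1). At the threshold of 2-fold and with at least 20 UMIs over both libraries, 8 of 8 members were higher, where 10.0% of the 9070 genes counted were at least 2-fold higher and 2.15% at least 2-fold lower. That count follows from the choice of genes. The median log2 ratio of all counted genes was 0.28 on CPM of all UMIs and 0.14 when acinar and mitochondrial UMIs were left out of the total, so scaling moves every ratio slightly. On that second total the 8 ratios ran between 5.14 and 18.2. Thinned to 1000 UMIs per barcode, Fn1 was 4.95-fold, Bmp4 6.88-fold and Tmem158 8.80-fold higher, on 8, 8 and 4 UMIs of the diabetic sedentary library. Shares of barcodes given below compare with 0.0258% to 2.10% of acinar barcodes that held any one of these genes where it was seen at all.

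Vwf, the platelet-binding glycoprotein of endothelial storage granules, had 454 UMIs in 59 barcodes of the exercise library, 152 UMIs in 21 barcodes of the diabetic sedentary library and 2 UMIs in 1 barcode of the library labelled none. Its level was 545 CPM (496 to 598) in the exercise library, 66.0 CPM (55.9 to 77.4) in the diabetic sedentary library and 3.73 CPM (0.452 to 13.5) in the library labelled none. The ratio of exercise over diabetic sedentary was 8.26 (6.86 to 9.99). Barcodes that held Vwf averaged 7.69 UMIs with exercise and 7.24 UMIs in the diabetic sedentary library. That average joined opposite differences, at 5.17 and 8.78 UMIs in barcodes without Kdr and 13.4 and 6.08 UMIs in those with Kdr. Copies per barcode were not corrected for depth. Vwf was held by 21.5% of endothelial barcodes in the exercise library, 3.65% in the diabetic sedentary library and 0.746% in the library labelled none.

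Mgp, the matrix Gla protein that binds bone morphogenetic proteins and restrains calcification, was the most abundant member in endothelial barcodes of the diabetic libraries. It had 1506 UMIs in 71 barcodes of the exercise library, 309 in 31 of the diabetic sedentary library and 4 in 3 of the library labelled none. Its levels were 1808 CPM (1718 to 1902), 134 CPM (119.6 to 150.0) and 7.46 CPM (2.03 to 19.1) in these libraries, a ratio of 13.5 (11.9 to 15.3) for exercise over diabetic sedentary. Copies of Mgp per positive barcode were 21.2 UMIs with exercise and 9.97 UMIs in the diabetic sedentary library. They were 31.1 and 14.6 UMIs in barcodes without Kdr and 8.42 and 7.76 UMIs in those with Kdr. Bmp4, a ligand that Mgp is known to bind, was a rare transcript, with 92 UMIs in the exercise library, 19 in the diabetic sedentary library and 1 in the library labelled none. Its level was 110.5 CPM (89.0 to 135) with exercise and 8.25 CPM (4.97 to 12.9) in the diabetic sedentary library, a ratio of 13.4 (8.11 to 23.2).

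Among the structural proteins, Eln, the elastin of elastic fibres, was the most widely detected member and had the smallest ratio. It had 318 CPM (281 to 359) in the exercise library, 56.0 CPM (46.8 to 66.5) in the diabetic sedentary library and 11.2 CPM (4.11 to 24.4) in the library labelled none. Eln was held by 78 of 275, 80 of 576 and 6 of 134 barcodes in these libraries, with 3.40, 1.61 and 1.0 UMIs per barcode that held it. Bgn, biglycan, a small proteoglycan that binds collagen, had 395 CPM (353 to 440.1) with exercise, 37.3 CPM (29.9 to 46.1) in the diabetic sedentary library and 3.73 CPM (0.452 to 13.5) in the library labelled none, a ratio of 10.6 (8.32 to 13.6) between the diabetic libraries. Fn1, fibronectin, which links cells to matrix through integrins, had 82.8 CPM (64.5 to 105), 7.38 CPM (4.30 to 11.8) and 14.9 CPM (6.44 to 29.4) in these libraries. It was the only member whose point value was lower in the diabetic sedentary library than in the library labelled none.

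Cytl1 and Tmem158 were the members not seen at all in endothelial barcodes of the library labelled none, where 0 of 134 barcodes allow a share of up to 2.72%. Cytl1 had 386 UMIs in 42 barcodes with exercise and 53 UMIs in 10 barcodes of the diabetic sedentary library, at 463 CPM (418 to 512) and 23.0 CPM (17.2 to 30.1). Its ratio of 20.1 (15.1 to 27.4) was the largest of the 8 as a point value, with an interval that overlaps those of Mgp, Bmp4, Fn1 and Tmem158. Tmem158, described in human fibroblasts as a gene induced by Ras, had 67 UMIs in 29 barcodes with exercise and 13 UMIs in 8 barcodes of the diabetic sedentary library, a ratio of 14.3 (7.80 to 28.1).

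**Figure D1:**
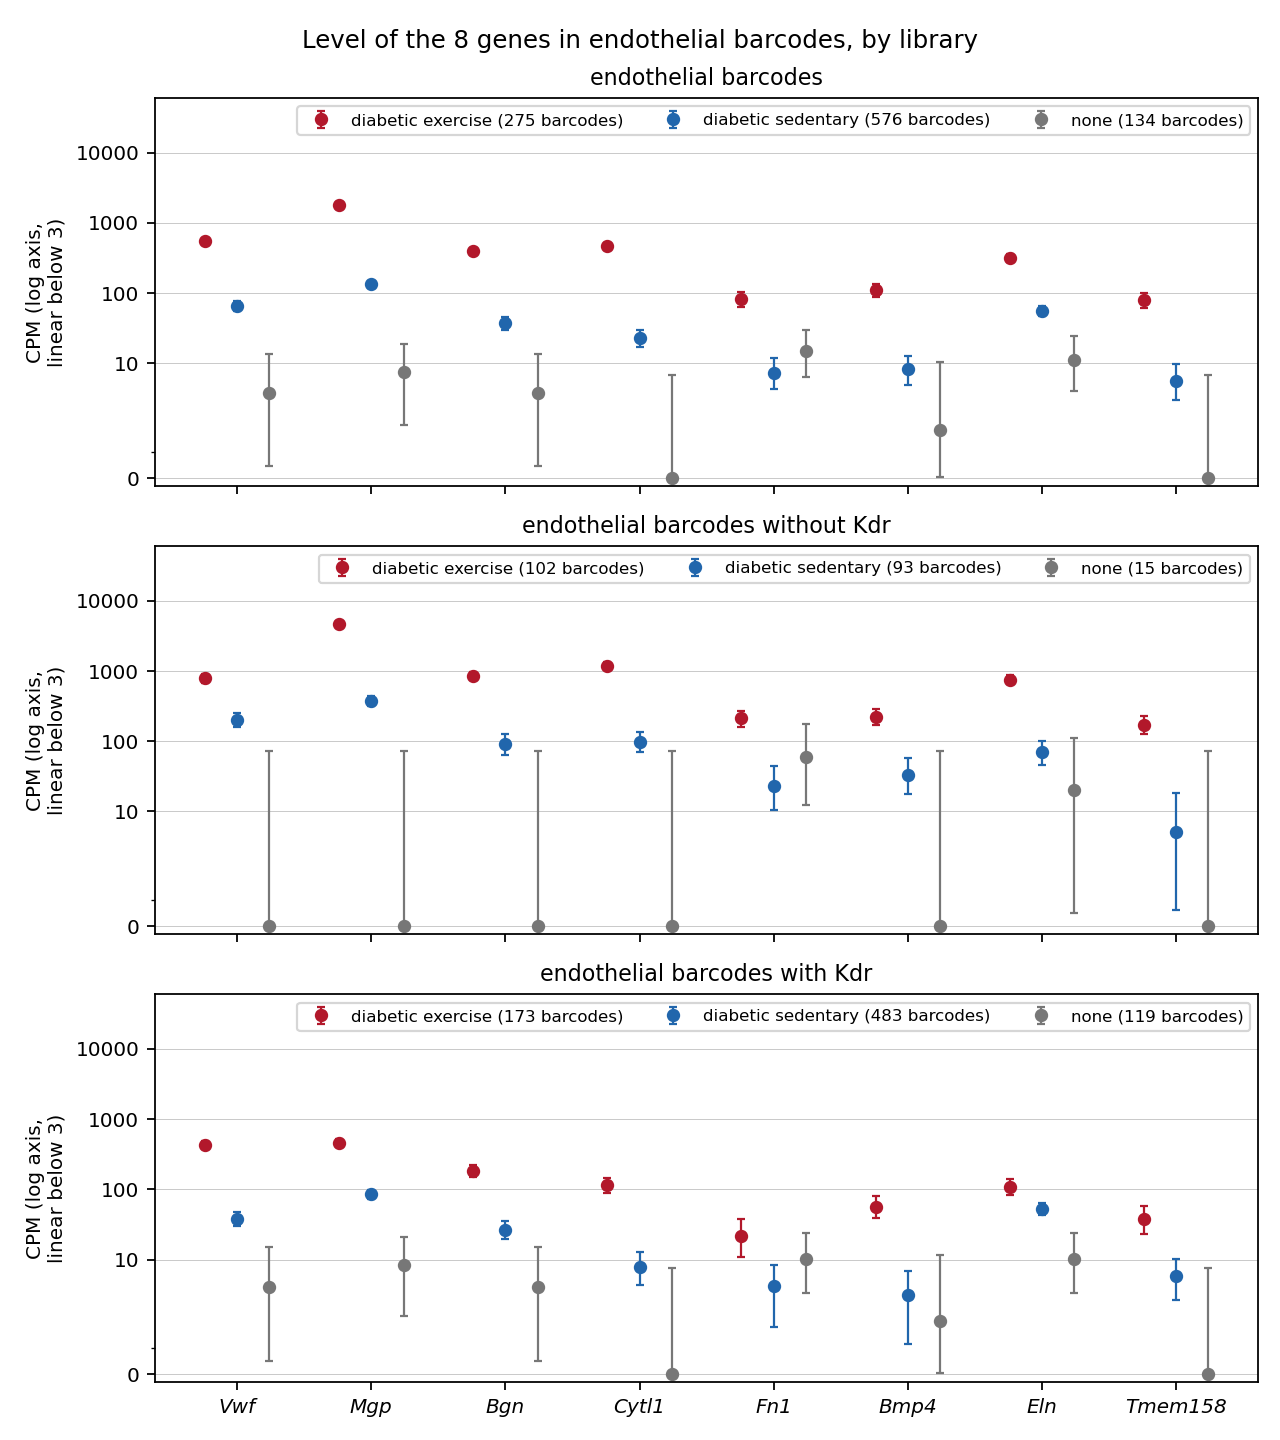
Level of each gene in CPM (y axis, log scale that is linear below 3) in all endothelial barcodes and in those without and with a Kdr UMI, for the diabetic exercise, diabetic sedentary and none libraries, with exact Poisson 95% intervals as bars. The exercise points lie above the diabetic sedentary points for all 8 genes in each panel, with Mgp at 4619 CPM in the exercise barcodes without Kdr.

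Barcodes without a Kdr UMI made up 37.1% (31.4 to 43.1) of endothelial barcodes in the exercise library, 16.1% (13.2 to 19.4) in the diabetic sedentary library and 11.2% (6.40 to 17.8) in the library labelled none, that is 102, 93 and 15 barcodes. Detection of Kdr depends on depth. With each barcode thinned to 1000 UMIs, which left out 21, 17 and 6 shallower barcodes, the shares were 51.6%, 32.7% and 31.3%.

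In the barcodes without Kdr, all 8 members were at least 2-fold higher with exercise than in the diabetic sedentary library, where 19.3% of 3463 counted genes were. In those with Kdr, 8 of 8 were as well, beside 9.17% of 8252 genes, although Eln there was close to the threshold. On the total without acinar and mitochondrial UMIs, 7 of 8 were, beside 6.62% of genes, with Eln at 1.85 (1.33 to 2.57). Mgp reached 4619 CPM (4366 to 4883) in exercise barcodes without Kdr and 376 CPM (317 to 442) in diabetic sedentary ones, and Cytl1 1191 CPM (1064 to 1329) and 97.8 CPM (69.2 to 134). With Kdr, Mgp had 463 CPM (409 to 523) in the exercise library and 85.1 CPM (72.6 to 99.2) in the diabetic sedentary library.

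The members did not share one pattern over this split. Mgp differed more between the diabetic libraries without Kdr, at 12.3-fold (10.3 to 14.7), than with Kdr, at 5.44-fold (4.46 to 6.66), and so did Eln, at 10.9-fold (7.27 to 16.9) against 2.03-fold (1.46 to 2.82). Vwf went the other way, at 3.87-fold (2.97 to 5.08) without Kdr and 11.3-fold (8.64 to 14.8) with Kdr. For these 3 genes the counting intervals of both classes do not overlap, and whether the classes differ between animals was not tested. At equal depth the order turned round for Mgp and Vwf and stayed for Eln. With barcodes thinned to 1000 UMIs and split again by Kdr, Mgp was 7.12-fold higher without Kdr and 14.9-fold higher with Kdr (39 and 8 UMIs), Vwf 6.16-fold and 5.09-fold (15 and 9 UMIs with Kdr), and Eln 5.04-fold and 3.96-fold (22 and 17 UMIs with Kdr). For Bgn, Cytl1, Fn1, Bmp4 and Tmem158 the intervals of both classes overlap.

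Holding the mix of Kdr classes fixed lowered each ratio and left the smallest at 3.89. Exercise CPM of both Kdr classes were weighted by the UMI shares of these classes in the diabetic sedentary library, where barcodes without Kdr held 16.9% of endothelial UMIs, beside 32.4% in the exercise library. At this fixed mix 8 of 8 members remained at least 2-fold higher, beside 10.0% of genes. That share equals the one without weighting, at 909 of 9070 genes each, of which 796 were the same genes. The ratio of Mgp was then 8.68 in place of 13.5, that of Cytl1 12.9 in place of 20.1, that of Eln 3.89 in place of 5.68 and that of Vwf 7.42 in place of 8.26. Weighted ratios of Bgn, Fn1, Bmp4 and Tmem158 were 7.84, 7.23, 10.3 and 10.6.

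Endothelial barcodes of the diabetic sedentary library, in turn, held more of most members than those of the library labelled none. Of 7 members with at least 20 UMIs, 6 were at least 2-fold higher, where 22.6% of 8364 genes were. These 6 reached 20 UMIs almost wholly through the diabetic sedentary library, with 0 to 6 UMIs in the library labelled none. A member scarce in the diabetic sedentary library could hardly be counted, so the count is a description and supports nothing. The median log2 ratio of all genes was 0.39 here, or 0.20 without acinar and mitochondrial UMIs in the total. Vwf was 17.7-fold (4.81 to 147) and Mgp 18.0-fold (6.95 to 66.4) higher, each over 2 or 4 UMIs of the library labelled none, and Eln 5.0-fold (2.24 to 13.9). Cytl1 was at least 4.11-fold higher against a floor of 3 UMIs. Fn1 was the 1 member at least 2-fold lower, beside 1.79% of genes, at 0.494 of its level in the library labelled none, with an interval of 0.202 to 1.32 that includes equal levels. This comparison shares the diabetic sedentary library with the one above.

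At the edge of the endothelial threshold Mgp and Vwf were scarcer than over all endothelial barcodes in both diabetic libraries, while Bgn in the diabetic sedentary library was not. Exercise barcodes with exactly 3 marker UMIs, just inside, had 23.9 CPM of Mgp, 47.8 CPM of Vwf and 215 CPM of Bgn over 31 barcodes, and those with 2 marker UMIs, just outside, had 146, 50.1 and 159 CPM over 58 barcodes. In the diabetic sedentary library 45 barcodes inside had 9.02 CPM of Mgp and 54.1 CPM of Bgn with no Vwf UMI, and 71 outside had 24.1 and 63.7 CPM, again with no Vwf UMI. Several of these values rest on a single barcode. Inside, it gave 15 of 18 Bgn UMIs with exercise and 9 of 12 in the diabetic sedentary library. Outside, it gave 21 of 32 Mgp UMIs with exercise and 13 of 14 in the diabetic sedentary library.

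Most UMIs of the 8 genes came from few endothelial barcodes. A barcode with 3 or more of the 8 genes, a cut chosen after the values were seen, was found 55 times among 275 in the exercise library (20%, 15.4 to 25.2), 19 times among 576 in the diabetic sedentary library (3.30%, 2.0 to 5.10) and 0 times among 134 in the library labelled none, which allows up to 2.72%. These barcodes held 94.5% of the members' endothelial UMIs in the exercise library and 77.5% in the diabetic sedentary library. Because the barcodes were picked by the members they held, high shares follow in part from the cut and are a description. None of the 8 was seen in 149, 444 and 118 barcodes of the 3 libraries. Thinned to 1000 UMIs, the shares with 3 or more were 16.9%, 1.61% and 0%.

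**Figure D2:**
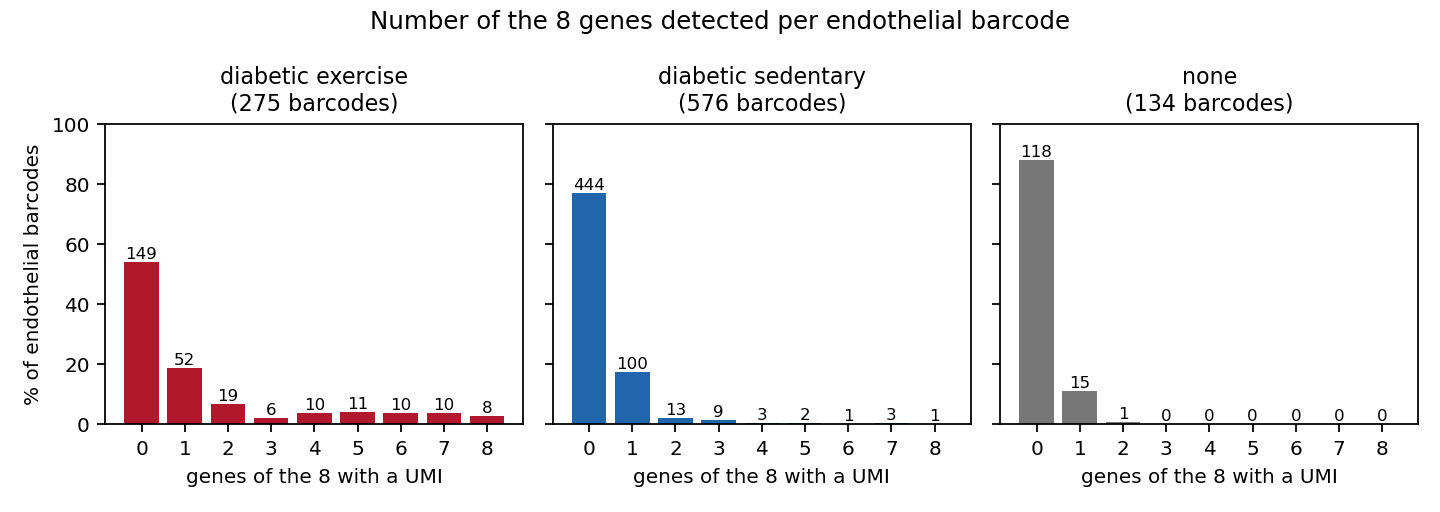
Share of endothelial barcodes (y axis, percent) by how many of the 8 genes had a UMI (x axis), with the number of barcodes above each bar, for the diabetic exercise, diabetic sedentary and none libraries. The exercise library has 8 barcodes with all 8 genes and the diabetic sedentary library 1, while the library labelled none has no barcode beyond 2 genes.

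Within the barcodes with 3 or more of the genes, the exercise level was above the diabetic sedentary one, and by less than over all endothelial barcodes. The set is defined by the members, which were picked for this contrast, so these levels are a description and support nothing. Mgp had 7966 CPM in the exercise set and 2985 CPM in the diabetic sedentary set, Cytl1 2099 and 550.3 CPM, Eln 1242 and 572 CPM, and Vwf 2395 and 1429 CPM. The remaining barcodes held little of any member. There, Mgp had 86.0 CPM with exercise and 12.2 CPM in the diabetic sedentary library, and Eln, the member most often seen alone, 59.9 and 34.0 CPM. Of the 55 exercise barcodes 37 lacked Kdr and 5 also passed the gate of another cell type, and of the 19 diabetic sedentary barcodes 8 lacked Kdr and 8 passed another gate. Mural marker genes summed to 115 CPM in the exercise set and 2021 CPM in the diabetic sedentary set, and fibroblast markers to 560.4 and 1196 CPM.

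Some barcodes held several members and many held 1. Exactly 1 of the 8 genes was seen in 52 of 275 exercise endothelial barcodes and in 100 of 576 diabetic sedentary ones, beside the 55 and 19 with 3 or more. Of the 42 exercise endothelial barcodes with Cytl1, 92.9% also held Mgp and 88.1% Vwf, and of the 28 with Bmp4, 89.3% held Bgn and 82.1% Cytl1. Of the 29 with Tmem158, 96.6% held Mgp and 93.1% Bgn. In the exercise library Vwf was in 70.4% of barcodes with Mgp and 4.41% of those without, and Cytl1 in 54.9% and 1.47%. Eln was seen without Mgp more often than these, in 64.8% of barcodes with Mgp and 15.7% of those without in the exercise library, and in 48.4% and 11.9% in the diabetic sedentary library. Fn1 was the member least often found beside the others, in 20.9% to 44.8% of the barcodes that held another member. In the diabetic sedentary library 90% of the 10 barcodes with Cytl1 held Mgp, but only 18.8% of the 80 with Eln did, against 59.0% of the 78 with Eln in the exercise library. Deeper barcodes show more genes of any kind, which these shares do not correct for.

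**Figure D3:**
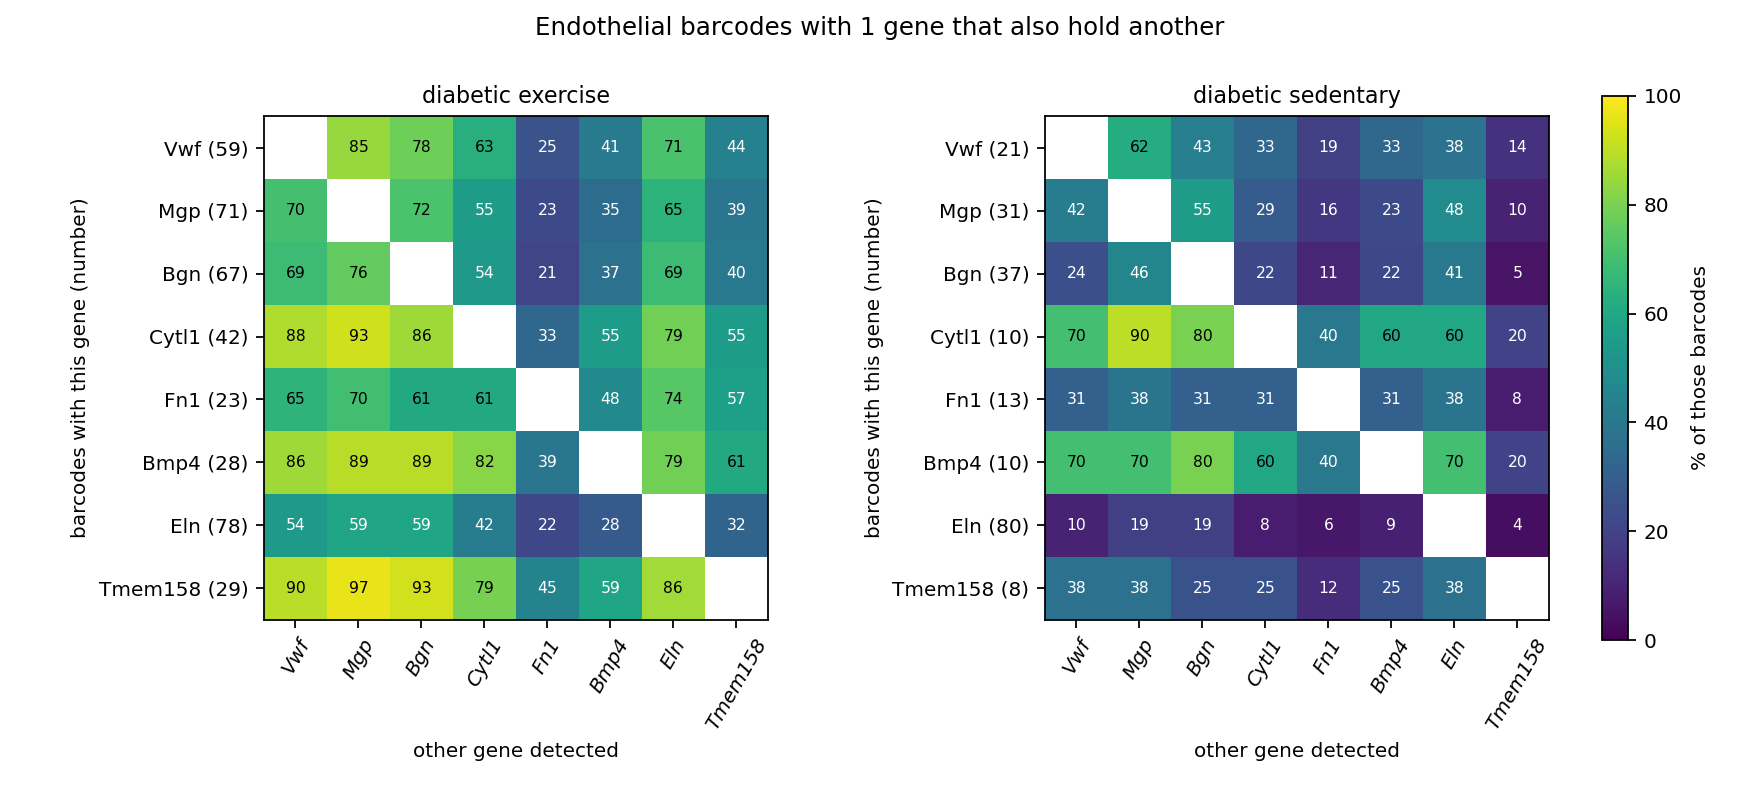
Percent of endothelial barcodes holding the row's gene (number in brackets) that also held the column's gene, in the diabetic exercise library and the diabetic sedentary library. Rows of Cytl1, Bmp4 and Tmem158 are high in the exercise panel, and the row of Eln is low in the diabetic sedentary panel.

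Markers of vessel type were set beside the members. Summed arterial markers had 1836 CPM in exercise endothelial barcodes, 1387 CPM in diabetic sedentary ones and 612 CPM in those of the library labelled none, and venous markers 683, 369.9 and 278 CPM. Capillary markers had 11420, 15562 and 8673 CPM and lymphatic markers 91.2, 429.8 and 308 CPM. All 13 arterial markers were seen in each library, while the venous markers Selp and Sele were at 0 in the library labelled none and the lymphatic markers Ccl21a and Reln at 0 in the exercise library. Between the diabetic libraries 4 of 13 arterial markers (Gja5, Bmx, Jag1 and Fbln5) and 4 of 7 venous ones (Vcam1, Sele, Ackr1 and Selp) were at least 2-fold higher with exercise and 0 lower, beside 10.0% of all genes higher and 2.15% lower. Of 9 capillary markers 1 (Rgcc) was at least 2-fold lower and 0 higher, and of 6 counted lymphatic markers 4 were lower and 0 higher. The arterial genes Gja5, a gap junction protein, and Bmx, a kinase, were 7.42-fold (4.31 to 13.3) and 16.2-fold (7.61 to 39.8) higher with exercise, and Vcam1, an adhesion molecule of the venous list, 5.33-fold (3.63 to 7.94), while the venous genes Nr2f2 and Ephb4 were at 1.56 (1.16 to 2.08) and 0.875 (0.636 to 1.19). Other arterial genes lay nearer 1, such as Sox17 at 1.05 (0.814 to 1.34) and Dll4 at 0.781 (0.555 to 1.08). Capillary markers ran between 0.382 (0.340 to 0.429) for Rgcc and 1.58 (1.24 to 2.01) for Esm1, with Kdr at 0.752 (0.698 to 0.810) and Cd36 at 0.851 (0.772 to 0.936).

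Members were also read in barcodes with an arterial or a venous marker, classes that overlap. The marker pairs were chosen after values were seen. Each of these marker genes was itself at least 2-fold higher with exercise, so a class need not hold like cells in both libraries. With Gja5 or Bmx, 24 of 34 exercise and 5 of 19 diabetic sedentary barcodes held 3 or more members. With Ackr1 or Selp, 20 of 28 and 9 of 16 did. A UMI of Gja5 or Bmx was found in 34 of 275 exercise barcodes and 19 of 576 diabetic sedentary ones, and one of Ackr1 or Selp, marks of venules, in 28 and 16, with 9 and 2 barcodes in both classes. Mgp stood at 8777 CPM in the exercise barcodes with Gja5 or Bmx and 725 CPM in the diabetic sedentary ones, a ratio of 12.1 (9.48 to 15.7), and Cytl1 at 2351 and 277 CPM, a ratio of 8.48 (5.68 to 13.2). Ratios of the 8 members in this class ran between 2.79 for Vwf (1.98 to 4.01) and 32.3 for Tmem158, over 1 diabetic sedentary UMI. In barcodes with Ackr1 or Selp they ran between 0.594 for Fn1, on 5 and 7 UMIs, and 3.13 for Bgn (2.02 to 5.03), and the interval of Vwf overlaps between both classes. There Mgp had 4421 CPM with exercise and 2338 CPM in the diabetic sedentary library, a ratio of 1.89 (1.59 to 2.26), Vwf 2476 and 1495 CPM, a ratio of 1.66 (1.32 to 2.09), and Bmp4 191 and 166 CPM, a ratio of 1.15 (0.533 to 2.56). The small differences in this class depend on the pair. In barcodes with at least 2 UMIs of the whole venous list, Mgp had 3768 CPM with exercise and 402 CPM in the diabetic sedentary library. Vwf had 1484 and 216 CPM there. With at least 2 UMIs of the whole arterial list, Mgp had 2234 and 169 CPM and Vwf 585 and 83.7 CPM. Barcodes with neither pair, 222 in the exercise library and 543 in the diabetic sedentary library, still differed, with Vwf at 262 and 10.3 CPM and Mgp at 346 and 52.7 CPM. The library labelled none had 3 barcodes with Gja5 or Bmx and 1 with Ackr1 or Selp, too few to set beside the others.

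Markers of other cell types moved with the exercise contrast in part. In endothelial barcodes the 7 fibroblast markers summed to 353 CPM with exercise, 97.7 CPM in the diabetic sedentary library and 119 CPM in the library labelled none, with none of them at 0 in either diabetic library and Pdgfra and Lum at 0 in the library labelled none. The 11 mural markers summed to 116 CPM, 252 CPM and 85.8 CPM, and the part of either list in the result was not tested beyond the values here. Of 294 fibroblast marker UMIs of the exercise library, 286 lay in barcodes with Kdr (508 CPM), while the barcodes without Kdr, where Mgp, Cytl1 and Eln were highest, had 29.7 CPM of fibroblast markers with Pdgfra, Col1a1 and Dpt at 0, and 51.9 CPM of mural markers with 6 of 11 at 0, Myh11, Notch3 and Pdgfrb among them. Leaving out every barcode that also passed another gate, 21 in the exercise library and 53 in the diabetic sedentary library, left ratios between 7.78 (Eln) and 21.1 (Bgn) for the 8 members. Bgn was the member this moved most, since its ratio was 10.6 with these barcodes in.

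Acinar barcodes, which had under 3 UMIs of each other gate, were read as a gauge of the free RNA of each library. Whether they held RNA of other cells in another way was not tested, and 1 of them in the exercise library had 12 Mgp UMIs. Vwf was seen in 0.659% of 13805 acinar barcodes with exercise (median depth 1955 UMIs), 0.0563% of 8886 in the diabetic sedentary library (5703.5 UMIs) and 0.0258% of 7754 in the library labelled none (4282.5 UMIs). Cytl1 was in 0.493% and 0.0450% of those of the diabetic libraries and in 0 of the library labelled none. These shares are far below the 21.5% and 15.3% of exercise endothelial barcodes, but they too were higher with exercise. Shares with Tmem158 were not, at 0.340% with exercise, 0.371% in the diabetic sedentary library and 0.361% in the library labelled none. Nor were those with Bgn, at 1.80%, 2.10% and 0.503%. Between the diabetic libraries, exercise first, shares with Mgp (1.93% and 1.81%) and Bmp4 (0.109% and 0.101%) were close. Those with Fn1 (0.884% and 0.574%) and Eln (0.688% and 0.304%) were higher with exercise. Per UMI the ratios of the 8 members between acinar barcodes of the exercise and the diabetic sedentary library lay between 2.62 (Bgn) and 37.3 (Vwf). Their part in the endothelial ratios was not tested. Within the exercise library Vwf stood to Cytl1 as 1.34 to 1 in acinar barcodes (0.974 to 1.85) and as 1.18 to 1 in endothelial barcodes (1.02 to 1.35). Shares in endothelial barcodes of the library labelled none, at most 4.48%, rest on 0 to 8 UMIs per gene.

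Fibroblast and mural barcodes were set beside the endothelial ones. Fibroblasts are the main makers of elastic and collagenous matrix, and mural cells, pericytes and smooth muscle, wrap the vessels. Fibroblast barcodes, chosen by Pdgfra, Col1a1, Col1a2, Col3a1, Dcn, Lum and Dpt, numbered 286 in the exercise library, 597 in the diabetic sedentary library and 349 in the library labelled none, and mural barcodes 77, 162 and 44.

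In fibroblasts, Eln was the member that differed most between the diabetic libraries, at 567 CPM (523 to 614) with exercise and 93.9 CPM (82.98 to 106) without, and 99.1 CPM (84.3 to 116) in the library labelled none. The ratio was 6.04 (5.22 to 7.0). Without the barcodes that also passed another gate, 36 in the exercise library and 58 in the diabetic sedentary library, it was 2.30, and mural markers in fibroblast barcodes summed to 257 CPM with exercise, 142 CPM in the diabetic sedentary library and 96.0 CPM in the library labelled none. Mesothelial markers summed to 220.0, 112 and 290.4 CPM in these barcodes. The part of such barcodes in the result was not tested further. Copies per barcode differed more than the share of barcodes: 23.1% of fibroblasts held Eln with exercise at 9.26 UMIs each, 20.8% in the diabetic sedentary library at 2.15 UMIs and 19.2% in the library labelled none at 2.36 UMIs. Fn1 had 671 CPM (623 to 722) with exercise, 285 CPM (266 to 305) in the diabetic sedentary library and 684 CPM (644 to 726) in the library labelled none, so that the diabetic sedentary value was the low one of the 3.

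Counted at 2-fold, 2 of the 6 members with enough UMIs were higher in exercise fibroblasts, Eln and Fn1, where 13.1% of 9631 genes were, and the median log2 ratio of all genes was 0.43. With acinar and mitochondrial UMIs left out of the total that median was 0.11, 5.27% of genes were at least 2-fold higher and 3.40% lower in place of 13.1% and 1.70%, and Fn1 was at 1.90. Mgp had 1542 CPM with exercise, 922 CPM in the diabetic sedentary library and 241 CPM in the library labelled none, and Bgn 1493, 927 and 423 CPM. Their ratios between the diabetic libraries were 1.67 (1.57 to 1.78) and 1.61 (1.51 to 1.71), and 1.35 and 1.30 on the second total. Bmp4, at 132, 99.9 and 70.3 CPM, and Tmem158, at 39.0, 25.7 and 17.6 CPM, differed by less than 2-fold. With barcodes thinned to 1000 UMIs the ratios of Mgp, Bmp4 and Tmem158 were below 1, at 0.971, 0.939 and 0.716, and that of Bmp4 was 0.948 with TMM scaling. Without barcodes past another gate Mgp was at 1.10. Vwf and Cytl1 were almost absent from fibroblasts, with 6 and 1 UMIs in the exercise library.

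In mural barcodes 2 of 4 members with enough UMIs were at least 2-fold higher with exercise, beside 22.7% of 4263 genes, and 2.98% were lower. On the total without acinar and mitochondrial UMIs 9.73% were higher and 7.98% lower, the median log2 ratio being 0.11 in place of 0.55, and 1 of the 4 members was past the threshold. Eln was that one, at 318 CPM (252 to 396) with exercise, 73.4 CPM (53.4 to 98.6) in the diabetic sedentary library and 0 in the library labelled none, a ratio of 4.33 (2.96 to 6.41) between the diabetic libraries. It was 2.72 with TMM scaling, which sets the totals by the bulk of genes, and 2.54 without barcodes that had at least 50% acinar UMIs, an alternative chosen after seeing the data. Fibroblast markers summed to 560.4 CPM in mural barcodes with exercise, 758 CPM in the diabetic sedentary library and 229 CPM in the library labelled none, and their part in these values was not tested. Mgp rested on a single barcode, which gave 65.2% of the 164 mural UMIs of the exercise library. Its level was 652 CPM with exercise and 324 CPM in the diabetic sedentary library, and without the leading barcode of each library the ratio was 0.831 in place of 2.01. Bgn was at 564, 349 and 229 CPM, with a ratio between the diabetic libraries of 1.62, and of 1.02 with TMM scaling and 1.08 when thinned, and Fn1 at 83.5, 78.4 and 7.37 CPM. Cytl1 had no UMI in mural barcodes of any library, where 0 of 77, 162 and 44 allow up to 4.68%, 2.25% and 8.04%.

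**Figure D4:**
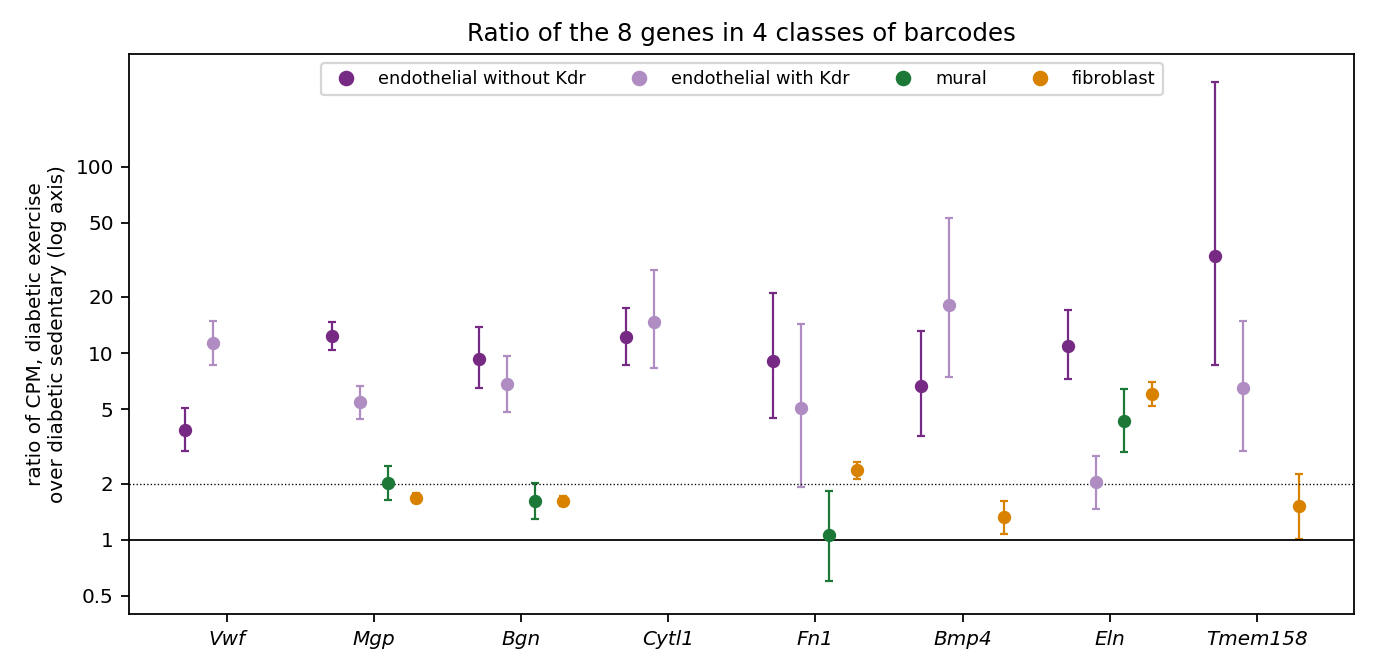
Ratio of CPM of the diabetic exercise over the diabetic sedentary library (y axis, log scale) for each gene with at least 20 UMIs over both libraries, in endothelial barcodes without and with Kdr, mural barcodes and fibroblast barcodes, with exact Poisson 95% intervals. Points of the endothelial classes lie at or above the dotted line at 2, and among mural and fibroblast points Eln is the farthest above it.

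The genes differed in which cells carried them. Of all UMIs in kept barcodes of the exercise library, endothelial barcodes held 83.7% of Cytl1 and 79.5% of Vwf, 41.1% of Mgp, 39.4% of Tmem158, 35.7% of Bmp4, 23.5% of Eln, 10.2% of Bgn and 4.0% of Fn1. In the diabetic sedentary library these shares were 91.4% for Cytl1 and 93.8% for Vwf, 9.30% for Mgp, 9.85% for Tmem158, 5.94% for Bmp4, 25.0% for Eln, 2.18% for Bgn and 1.17% for Fn1. In the exercise library fibroblasts held 55.0% of Bmp4, 54.2% of Eln, 49.8% of Bgn, 45.3% of Mgp, 41.9% of Fn1 and 24.7% of Tmem158. Acinar barcodes there held 27.6% of Tmem158, 16.6% of Vwf and 15.4% of Cytl1. Ductal barcodes carried 25.9% of Bgn in the exercise library, in 317 of 721 barcodes, and macrophage barcodes 33.5% of Fn1. Macrophage Fn1 stood at 804 CPM with exercise, 342 CPM in the diabetic sedentary library and 126 CPM in the library labelled none.

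**Figure D5:**
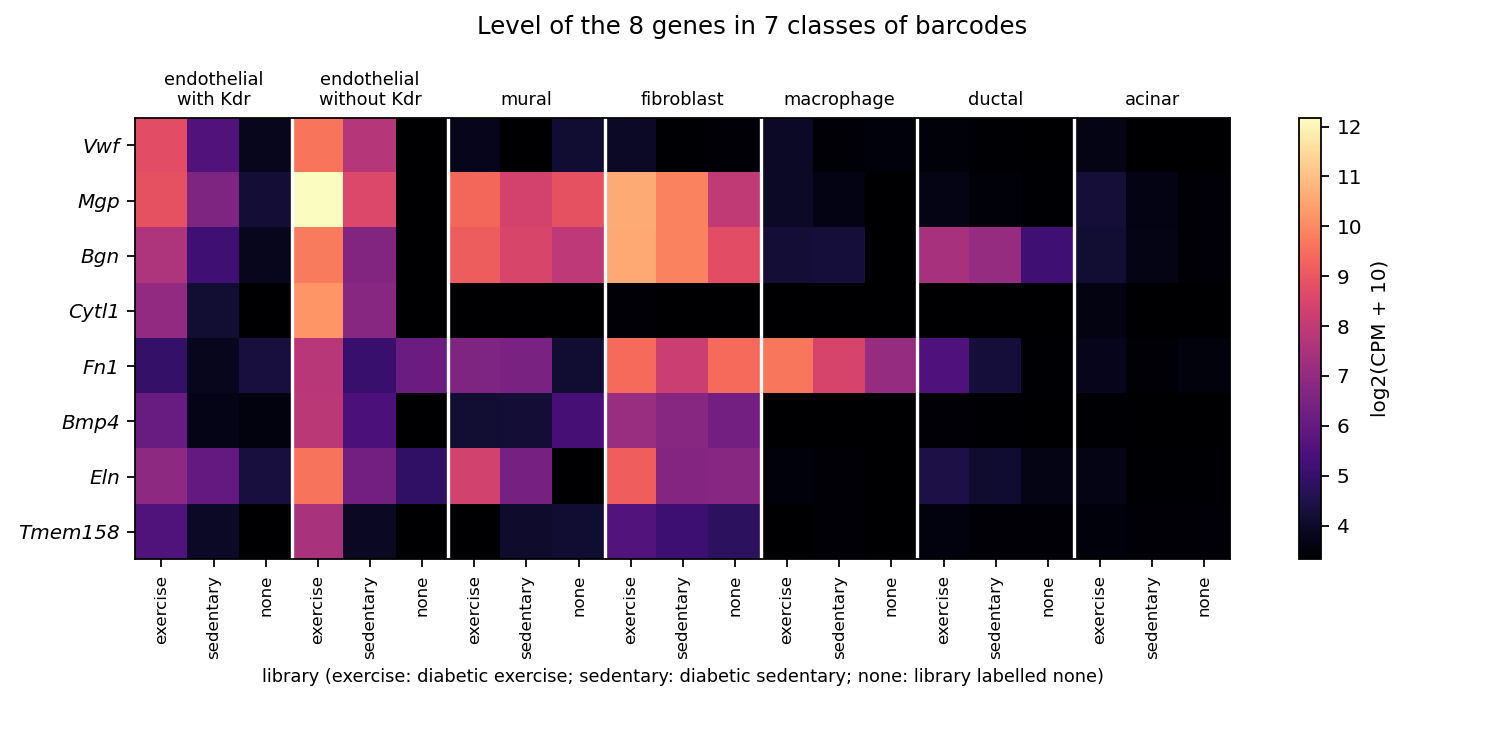
Level of each gene as log2(CPM + 10) (colour) in 7 classes of barcodes (column blocks) and, within each, the diabetic exercise, diabetic sedentary and none libraries. Vwf and Cytl1 are brightest in the endothelial blocks of the diabetic libraries, while Mgp, Bgn and Eln are bright in mural and fibroblast blocks too and Fn1 in macrophages.

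Over these 21 profiles, 7 classes in 3 libraries that share depth and free RNA within each library, likeness was measured as Pearson's r of log2(CPM + 10) among 12580 genes, as a description. Vwf was most like Selp (0.96), the P-selectin of the same granules, then Cytl1 (0.96) and Ssu2 (0.94). Cytl1 was most like Vwf (0.96), Myrip (0.95), which is known to tether Weibel-Palade bodies to actin, and Cldn5 (0.94), a tight junction protein of endothelium. Bmp4 was most like Pcsk5, Tmem158 and Vegfc (0.92 each), and Tmem158 like Bmp4 (0.92), Vegfc (0.89) and Adamts10 (0.87). Mgp was nearest to Hoxa5 (0.92), Bmp4 (0.90) and Adamts10 (0.90), Bgn to Sgce (0.94), Phlda3 and Arhgef40 (0.93 each), Eln to Reck (0.91), Hs3st1 (0.90) and Pcdh7 (0.89), and Fn1 to Cdk14 (0.93), Trerf1 and Emp3 (0.91 each). Among the members themselves r ran between -0.01 for Vwf with Fn1 and 0.96 for Vwf with Cytl1.

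Partner genes of the members were read in endothelial barcodes from lists of textbook pathways. Of the elastic fibre list besides Eln, 7 of 12 genes with enough UMIs were at least 2-fold higher with exercise than in the diabetic sedentary library and 1 lower, beside 10.0% of all genes higher and 2.15% lower, with a median log2 ratio of 1.40 beside 0.28 for all genes. They were the microfibril genes Fbn1 (4.35-fold, 2.44 to 7.90) and Mfap5, the fibulins Fbln5 (2.32-fold, 1.91 to 2.80) and Efemp1, the latent TGF-beta binding proteins Ltbp3 and Ltbp4 (3.02-fold, 2.55 to 3.58) and Lox, the crosslinking enzyme. Mfap2 was the lower one, and Fbln2 was at 1.48 (1.24 to 1.75). Of the small leucine-rich proteoglycans besides Bgn, Dcn (3.46-fold, 2.71 to 4.42) and Ogn (5.76-fold, 2.79 to 12.6) were higher and Prelp was at 0.781 (0.387 to 1.47). Dcn is also one of the fibroblast markers, whose sum in these barcodes was 353 CPM with exercise and 97.7 CPM in the diabetic sedentary library. In that order, UMIs were few for Fbn1 (33 and 21), Mfap5 (17 and 4) and Efemp1 (30 and 20). The same held for Ltbp3 (23 and 19), Lox (25 and 7) and Ogn (25 and 12), while Fbln5 had 206 and 246 and Ltbp4 292 and 267. The part of fibroblast RNA in these list ratios was not tested.

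Lists around the other members had medians nearer that of all genes, of which 10.0% were at least 2-fold higher and 2.15% lower. Of 14 genes of Weibel-Palade bodies besides Vwf, 3 were higher, namely Selp, Edn1, the vasoconstrictor endothelin (4.08-fold, 3.31 to 5.03), and Plat, and 3 lower, namely Angpt2, Igfbp7 (0.471, 0.442 to 0.501) and Mmrn1. Ece1, which processes endothelin, was at 1.05 (0.903 to 1.21) and Mmrn2 at 1.40 (1.22 to 1.60), and the median log2 ratio was 0.25. Mmrn1 is a lymphatic marker as well, and the lymphatic sum was lower in the exercise library. Among 8 genes of fibronectin and its receptors, Sdc4 was higher (3.57-fold, 2.60 to 4.93) and Itgb3 lower, with Itgb1 at 1.07 (0.895 to 1.28), Tgm2 at 1.90 (1.57 to 2.30), Tns1 at 1.28 (1.11 to 1.48) and a median of 0.36.

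Receptors and targets of bone morphogenetic proteins differed less between the diabetic libraries than Bmp4. That follows from the choice of Bmp4 for this contrast. Of 13 counted genes of this list besides Bmp4 and Mgp, 1 was at least 2-fold higher with exercise, the receptor Bmpr1a, on 17 UMIs in the exercise library and 19 in the diabetic sedentary library, and 0 were lower, with a median log2 ratio of 0.12. The target genes Id1 and Id3 had 485 and 449 CPM with exercise and 680.3 and 719 CPM in the diabetic sedentary library, ratios of 0.713 (0.637 to 0.796) and 0.625 (0.557 to 0.699). Id2, a further target of the list, went the other way, with 108 CPM with exercise and 62.1 CPM in the diabetic sedentary library, a ratio of 1.74 (1.32 to 2.28). The receptor Bmpr2 was at 0.969 (0.849 to 1.10) and the coreceptor Eng at 0.925 (0.836 to 1.02). In the diabetic sedentary library over the library labelled none, 7 of 13 were at least 2-fold higher and 1 lower, where 22.6% and 1.79% of all genes were, with a median log2 ratio of 0.86 beside 0.39 for all genes. Id1 was then 2.31-fold (1.96 to 2.74) and Id3 2.04-fold (1.75 to 2.38) higher, and the ligand Bmp2 was the lower one at 0.124 (0.0456 to 0.312).

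Of the remaining lists in that second comparison, Weibel-Palade bodies had 4 of 13 genes higher (Selp, Edn1, Ece1 and Mmrn1) and 0 lower, fibronectin and its receptors 2 of 8 (Sdc4 and Tgm2) and 0 lower, and elastic fibres 2 of 9 (Fbln5 and Mfap2) with Fbn1 lower at 0.326 (0.160 to 0.679). These counts lie near the 22.6% of all genes that were at least 2-fold higher, and the same limit of unequal UMI totals holds for them. Of 2 proteoglycans, Prelp was higher and Dcn at 1.30 (0.822 to 2.15).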

How the data were processed

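Single-cell RNA libraries of mouse pancreas were analysed, 1 per group. The authors deposited UMI counts per gene and barcode, whole numbers with no normalization. Cell Ranger made them, version 7.1.0 per the submitters' processing notes and 6.1.2 per the file headers. Aligner settings and the build aligned to: not given in the sources used here. All 55450 feature IDs and symbols match GENCODE M21 (GRCm38).

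The members and all gene lists were chosen with earlier results of these data known. Groups came from the labels. Barcodes were kept with at least 500 UMIs, 200 genes and at most 20% mitochondrial UMIs. Endothelial barcodes had at least 3 UMIs over 5 genes. Mural (11 genes) and fibroblast (7 genes) barcodes had at least 3, were not endothelial, and had their own sum above that of every other gate. Acinar barcodes had at least 50% of UMIs from 40 acinar genes and under 3 UMIs of each other gate. UMIs were summed per class and library as CPM of all their UMIs. Ratios carry exact conditional Poisson intervals, levels exact Poisson and shares exact (Clopper-Pearson) binomial ones, all at 95%. A gene at 0 was set against a floor of 3 UMIs. Genes counted at 2-fold had at least 20 UMIs over both libraries. Median log2 ratios over genes used a prior count of 0.5.

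Named were the 8 members, the 3 genes most like each over 21 profiles (at least 100 UMIs), and of each pathway list the 4 genes with most UMIs. Other list genes past 2-fold, and the vessel markers singled out, were named after their values were seen, as were the Gja5 or Bmx and Ackr1 or Selp classes.

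Scrublet (scanpy 1.11.5) marked 0 barcodes as doublets at its automatic threshold in each library, so the caller did not work here and no doublets were removed. Its top 5% by score were left out as an alternative, as were barcodes past 2 gates. Further alternatives were other filters, thresholds, totals, TMM factors (edgeR 4.0.16 on R 4.3.3), and thinning to 1000 UMIs (seed 1). Other tools were Python 3.11.15, numpy 2.4.6, scipy 1.17.1, pandas 2.3.3 and matplotlib 3.10.9. The counting steps were tested on simulated data. RefSeq promoters were found for 3 of 8 members.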

Additional observations from a re-analysis of the deposited data

Results flagged for a closer look

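Of the endothelial barcodes, 10 of the exercise library and 3 of the diabetic sedentary library had failed the filter on genes or mitochondrial share and enter no value above. The 10 exercise barcodes held 11 UMIs of Vwf, 10 of Mgp, 8 of Cytl1 and 6 of Eln, while the 3 diabetic sedentary barcodes held 0 of each, so these genes were also seen in barcodes that were left out. Fn1, Bmp4 and Tmem158 had 0 UMIs in both sets.

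Mgp went in opposite directions in different cells when the diabetic sedentary library was set over the library labelled none. It stood at 0.697 in mural barcodes (324 CPM in the diabetic sedentary library and 464 CPM in the library labelled none) and at 18.0 in endothelial barcodes (134 and 7.46 CPM). With 1 library per group this difference was not tested.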

How the results depend on the processing

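No paired analysis was possible because each group is 1 library, and for the same reason no replicate could be left out. Counting error bounds each value, and animals, handling, depth and free RNA cannot be told apart from the groups. The count of members at least 2-fold higher with exercise was 8 in all endothelial barcodes and at fixed Kdr mix under each alternative run, and 6 to 8 without Kdr. With Kdr it was 8, but 6 or 7 under 9 of 14 alternatives, the total without acinar and mitochondrial UMIs (7) among them, and 3 when thinned to 1000 UMIs, where only 3 members reached 20 UMIs. The mural count was 2, 3 with no minimum of UMIs, and 1 under TMM scaling, totals without acinar and mitochondrial UMIs, thinning, and without barcodes past 2 gates, high Scrublet scores, the barcode richest in the member, or acinar-rich barcodes. The fibroblast count was 2, 4 with no minimum of UMIs, and 1 under TMM scaling, the second total, thinning, or without acinar-rich barcodes. For diabetic sedentary over none it was 6, and 5 to 7 under the alternatives other than thinning, which gave 3. Leaving out acinar-rich barcodes was chosen after seeing the data. Mgp in mural barcodes turned lower with exercise without barcodes past 2 gates (0.690), when thinned (0.829) and without its richest barcode (0.831). Over alternatives, endothelial ratios lay between 6.54 and 9.29 for Vwf, 10.7 and 15.2 for Mgp, 8.11 and 21.1 for Bgn, 15.9 and 25.1 for Cytl1, 4.95 and 13.7 for Fn1, 6.88 and 15.3 for Bmp4, 4.50 and 7.78 for Eln, and 8.80 and 21.2 for Tmem158. The share without Kdr in the exercise, diabetic sedentary and none libraries was 46.5%, 22.6% and 19.6% at a threshold of 2 marker UMIs, 29.8%, 10.6% and 6.09% at 5, 51.6%, 32.7% and 31.3% when thinned, 18.2%, 6.08% and 5.22% for barcodes without Kdr, Plvap and Esm1, and 30.5%, 11.1% and 5.68% without acinar-rich barcodes. Of 417 member ratios under alternatives, 330 stayed within the counting interval of the main value. Of all 417, 14 changed direction: the 3 of Mgp above, 10 among ratios under 2-fold in fibroblast and mural barcodes (6 of them mural Fn1, at 0.626 to 0.869 in place of 1.06) and 1 on under 20 UMIs. The cause of these changes was not tested.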
